A study of Mus musculus with 12 samples.

Results

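Hearts after infarction were compared with hearts after a sham operation. The comparison used 6 of the 12 RNA libraries of the series, all 3 labelled MI and all 3 labelled sham, and covered every gene of the deposited expression table. MI is taken as myocardial infarction, the death of heart muscle that follows a blocked coronary artery. Both groups were hearts of C57BL/6J, an inbred laboratory mouse strain, flash frozen before RNA extraction, and neither carried a named transgene or drug. MI hearts had the infarct and no other treatment, and sham hearts had the sham label alone. The other 6 libraries, 3 labelled MI+CIH and 3 labelled CIH, carried CIH, taken as chronic intermittent hypoxia from the study's subject of sleep breathing disorders, with and without infarction. They serve here only as context. The labels do not give how the infarct was made, the time between operation and collection, the hour of collection, the part of the heart, the age or the sex. They also do not say whether each library came from its own animal, so p-values measure the spread between libraries, which may be technical. Where single hearts are spoken of below, each stands for a library and not for a known separate animal.

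When heart muscle dies it is replaced by scar. Fibroblasts of the heart turn into matrix-producing cells that secrete collagens, crosslinking enzymes, elastic fibre proteins and matricellular proteins, which bind cells and growth factors to the matrix. The surviving muscle cells carry more load and change their sarcomere, ion channel and receptor genes. The heart also holds a circadian clock, in which the activators BMAL1 and CLOCK drive genes whose products, the PER, CRY and REV-ERB proteins, shut the activators down again.

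Expression was given as FPKM, the reads or fragments of a gene divided by its exon length and by the size of the library. The depth recovered from the steps between FPKM values was 30790000, 26740000 and 29990000 reads in MI 1, 2 and 3 and 29520000, 28220000 and 30340000 reads in sham 1, 2 and 3, rounded to 4 digits. Libraries correlated across genes at r = 0.963 to 0.970 within MI, 0.961 to 0.965 within sham and 0.938 to 0.954 between the groups. Heart muscle markers were abundant in all 6 libraries: the summed FPKM of 8 of them was 13200 to 14200 in MI and 14500 to 16900 in sham. Markers of other tissues differed between libraries. The summed level of 4 atrial markers was 1420 in MI 1, against 161 and 275 in the other MI libraries and 598 to 823 in sham. The sum of 3 fast skeletal muscle markers was 96.0 in MI 2 and 1.67 to 2.82 in the other 5 libraries. That of 3 airway markers was 549 in sham 2 and 0.363 to 2.63 elsewhere. Fat and red cell markers differed between sham libraries: 3 fat cell markers summed to 51.2 FPKM in sham 2 against 8.0 and 6.54 in sham 1 and 3, and 3 red cell markers to 238 in sham 3 against 595 and 601 in sham 1 and 2. In whole-tissue RNA, fewer cells of a type and less RNA per cell cannot be told apart.

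Of 15503 genes tested, 304 passed limma's test at an adjusted p of 0.05, or 1.96% of them. The 212 that rose in MI made up 1.37% of the genes tested and the 92 that fell 0.593%. Risen genes had a median log2 change of 1.10 and fallen genes one of -1.06, on the log2(FPKM + 0.5) scale used throughout, against 0.06 over all genes. An unadjusted p under 0.05, in either direction, was found for 2562 of the 15503 genes. Changes were mostly moderate: 127 of the risen and 50 of the fallen genes moved by at least 1 on the log2 scale, and 26 and 10 by at least 2. All 304 had their MI libraries wholly above or wholly below their sham libraries, as did 4872 of all tested genes, or 31.4%. The number depended on each library. Leaving out MI 1, 2 or 3 gave 139, 30 and 22 genes, and leaving out sham 1, 2 or 3 gave 30, 27 and 205. It was 484 when MI+CIH 3, which enters only the estimate of the spread, was left out. A fit of the 6 libraries alone called 1042 genes (6.72%), 690 risen (4.45%) and 352 fallen (2.27%), among them 298 of the 304. The genes called in each of the 6 fits that left out an MI or sham library numbered 18: Cdkn1a, Mid1ip1, Abra, Scn4b, Adamts7, Slc38a2, Mfap5, Thbs3, Tlr4, Arntl, Hlf, Col5a3, Fbn2, Rhobtb2, Kcne1, Cdk18 and the antibody segments Igkv15-103 and Ighv7-1.

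**Figure D1:**
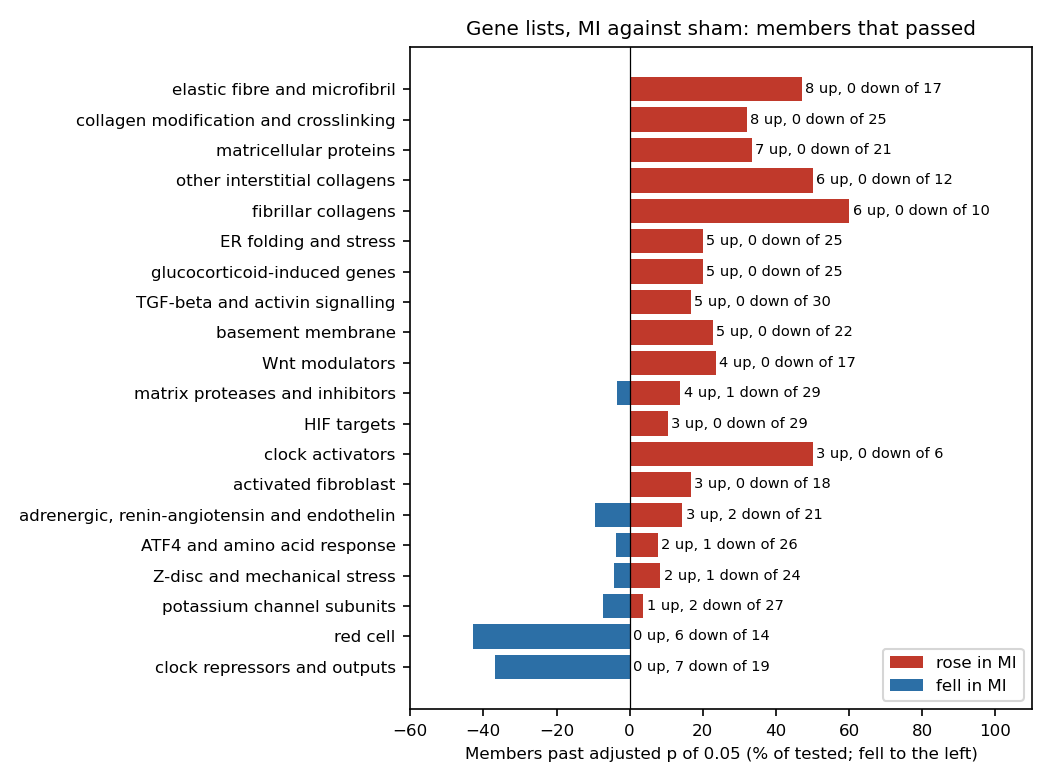
Share of the tested members of each gene list that passed the test in MI against sham, in percent, for the lists with 3 or more members past it. Red bars to the right are members that rose in MI and blue bars to the left members that fell, and the count stands beside each bar. The matrix lists hold only risen members apart from the proteases, the clock list of activators points right, and the red cell list and the clock list of repressors and outputs point left.

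Genes of the extracellular matrix rose together. In 7 lists of collagens, their processing enzymes, basement membrane, elastic fibre, proteoglycans and matricellular proteins, 41 of 127 tested genes rose (32.3%, against 1.37% of all tested genes), 0 fell and 120 had a log2 change above 0, with a median of 0.79 against 0.06 over all genes. They made up 19.3% of all risen genes. A set of 6 fibroblast markers summed to 332, 334 and 488 FPKM in MI 1, 2 and 3 and to 171, 172 and 201 FPKM in sham 1, 2 and 3. This sum is not separate from the matrix result, because its members Col1a1 and Dcn are also counted in the matrix lists. Dcn alone had 197, 158 and 246 FPKM in MI, against 114, 120 and 125 FPKM in sham. Within the marker set Pdgfra, a growth factor receptor of fibroblasts, and Col1a1 passed. Tcf21, a transcription factor of resting cardiac fibroblasts, had 9.21, 6.51 and 4.90 FPKM in MI against 8.49, 6.30 and 4.98 FPKM in sham (log2 change 0.04, adjusted p = 0.97). Ddr2 did not pass either (0.46, adjusted p = 0.241). The part of fibroblast number in the matrix changes was not tested.

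Of 10 fibrillar collagen chains, which form the load-bearing fibres of scar, 6 rose (list median 1.59). Col3a1, the chain of type III collagen (ENSMUSG00000026043, chromosome 1, 45311538 to 45349706, GRCm38), had 127, 198 and 233 FPKM in MI, against 25.4, 24.7 and 38.5 FPKM in sham (log2 change 2.62 ± 0.39 SE, adjusted p = 0.0128). Col1a1, a chain of type I collagen, had 69.4, 114 and 147 FPKM in MI, against 20.2, 17.4 and 32.3 FPKM in sham (2.20 ± 0.48, adjusted p = 0.0455). In both genes MI 1 was the lowest of the infarcted hearts and MI 3 the highest. The lowest infarcted heart still lay above the highest sham heart, as in all 212 risen genes. Col1a2 (1.94), Col5a1 (1.48) and Col5a2 (2.02) rose too, again with MI 1 lowest and MI 3 highest among the infarcted hearts. Col5a3, a minor fibril chain, was more even: it had 12.9, 15.2 and 12.1 FPKM in MI, against 3.03, 3.51 and 4.95 FPKM in sham (1.70 ± 0.21, adjusted p = 0.0061). Among the 12 other interstitial collagens 6 rose (list median 1.30). They were the fibril-associated chains Col12a1 (2.28), Col14a1 (1.85) and Col16a1 (1.61) and the beaded filament chains Col6a1 (1.10), Col6a3 (1.17) and Col6a5 (1.42). The network collagen Col8a2 had 1.69, 8.63 and 14.2 FPKM in MI, against 0.468, 0.379 and 0.720 FPKM in sham, and did not pass (2.71 ± 0.60, adjusted p = 0.0508). Its MI libraries all lay above sham, as one group did against the other in 31.4% of tested genes, but they spread widely among themselves.

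Basement membrane genes moved less, with 5 of 22 risen and a median of 0.48. Col4a1, a chain of the type IV network under endothelium and around muscle cells, had 209, 242 and 219 FPKM in MI, against 75.8, 67.7 and 118 FPKM in sham (1.39 ± 0.24, adjusted p = 0.0205). Col4a2 (1.25), Col4a5 (0.71), the laminin chain Lama2 (0.66) and the linker Nid1 (0.69) rose too. Endothelial markers did not separate the groups: 5 of them summed to 230 to 263 FPKM in MI and 210 to 272 FPKM in sham.

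Of 25 genes that modify or crosslink collagen 8 rose (median 0.65). Serpinh1, the collagen chaperone HSP47, had 108, 119 and 104 FPKM in MI, against 53.8, 46.1 and 55.8 FPKM in sham (1.08 ± 0.20, adjusted p = 0.0259). The infarcted hearts were close to each other and all clear of sham. P4ha1 and P3h2, which hydroxylate proline in collagen, rose by 0.79 and 1.12, and the propeptide-removing proteases Adamts2 and Bmp1 by 1.74 and 0.85. Lox, lysyl oxidase, which crosslinks collagen and elastin, had 6.17, 12.0 and 18.4 FPKM in MI, against 1.25, 1.85 and 1.34 FPKM in sham (2.57 ± 0.56, adjusted p = 0.0462). Its relatives Loxl1 (1.71) and Loxl3 (2.10) also had MI 1 lowest and MI 3 highest among the infarcted hearts.

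Elastic fibre genes rose in 8 of 17 cases (median 0.88). Eln, elastin itself (ENSMUSG00000029675, chromosome 5, 134702593 to 134747323), had 38.6, 54.4 and 60.4 FPKM in MI, against 10.7, 10.1 and 11.6 FPKM in sham (2.17 ± 0.29, adjusted p = 0.00863). The sham hearts were nearly equal, and every infarcted heart lay far above them. Mfap5, a microfibril glycoprotein (ENSMUSG00000030116, chromosome 6, 122505845 to 122529290), averaged 16.5 ± 5.7 FPKM in MI and 3.62 ± 0.551 FPKM in sham (SD, n = 3 each; log2 change 1.99 ± 0.22 SE, adjusted p = 0.00234). The fibrillins Fbn1 (1.85) and Fbn2 (1.52), which build microfibrils, the fibulins Fbln1 (1.0) and Fbln5 (1.02), and Mfap4 (2.11) rose as well. Ltbp2, a microfibril-bound relative of the latent TGF-beta binding proteins, had 9.73, 32.5 and 46.1 FPKM in MI, against 2.50, 2.48 and 4.04 FPKM in sham (2.87 ± 0.58, adjusted p = 0.0351). MI 1 was again the lowest of the infarcted hearts. Of 20 proteoglycan and hyaluronan genes the large proteoglycan Vcan alone passed (1.38), with a list median of 0.69 and 14 members higher at an unadjusted p under 0.05.

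**Figure D2:**
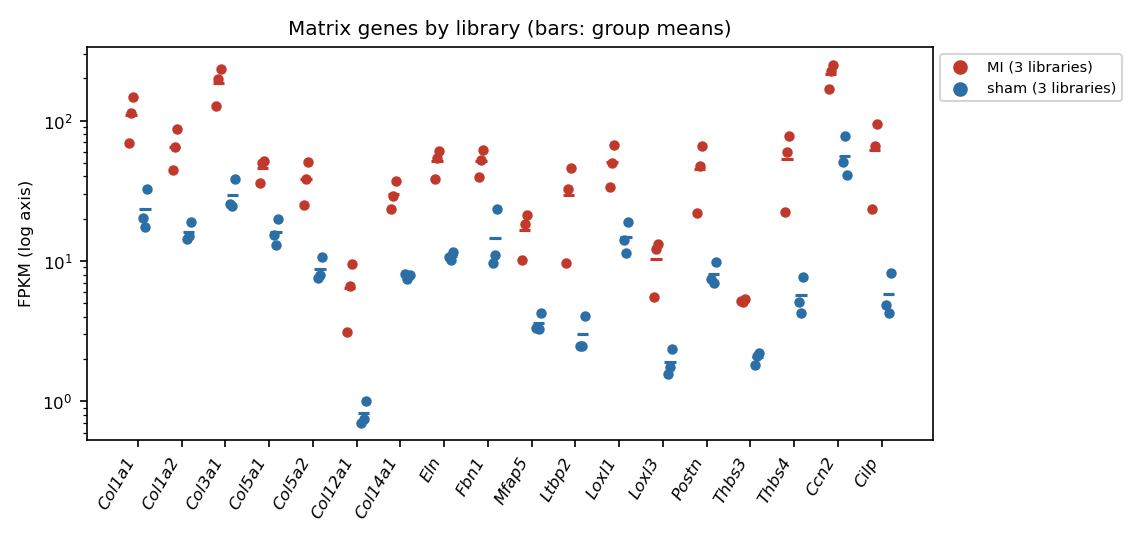
FPKM of 18 matrix genes in each library on a log axis, with MI in red to the left of sham in blue and a bar at each group mean. Each gene separates the groups, and the MI points of Col3a1 (127 to 233 FPKM), Ltbp2 (9.73 to 46.1 FPKM) and Cilp (23.6 to 94.5 FPKM) spread more than those of Thbs3 (5.09 to 5.39 FPKM).

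Matricellular genes rose in 7 of 21 cases, and all 21 had a log2 change above 0 (median 1.16). Postn, periostin, a secreted protein of scar fibroblasts, had 21.8, 47.3 and 66.1 FPKM in MI, against 7.46, 6.95 and 9.91 FPKM in sham (2.28 ± 0.42, adjusted p = 0.0252). Thbs4, a thrombospondin of injured heart and tendon, had 22.4, 59.3 and 77.8 FPKM in MI, against 5.12, 4.24 and 7.73 FPKM in sham (2.98 ± 0.64, adjusted p = 0.0457). Both varied widely among the infarcted hearts, with MI 1 lowest, and still left sham well below. Thbs3, another thrombospondin, had 5.19, 5.09 and 5.39 FPKM in MI, against 1.83, 2.12 and 2.23 FPKM in sham (1.16 ± 0.13, adjusted p = 0.00234). The change was smaller than that of Thbs4 but almost the same in each infarcted heart. Tnc (1.34), Sparc (1.31), the growth factor-like protein Ccn2 (1.95) and the calcification inhibitor Mgp (1.24) rose, while Ccn1 had 50.1, 64.2 and 91.1 FPKM in MI, against 25.5, 46.4 and 32.1 FPKM in sham, and did not pass (0.97, adjusted p = 0.159).

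Of 18 activated fibroblast genes 3 rose (median 0.48), against 1.37% of all tested genes (median 0.06). Cilp, a matrix protein of injured myocardium, varied widely: it had 23.6, 66.2 and 94.5 FPKM in MI, against 4.89, 4.24 and 8.22 FPKM in sham (3.14 ± 0.47, adjusted p = 0.0137). Pdgfra (1.08) and Pi16, a secreted fibroblast glycoprotein (1.61), were the others. Acta2, the smooth muscle actin that myofibroblasts and vessel walls express, had 116, 129 and 89.8 FPKM in MI, against 61.9, 65.6 and 100 FPKM in sham, so the groups overlapped (0.57, adjusted p = 0.451). Matrix proteases and their inhibitors rose in 4 of 29 cases and fell in 1. Mmp2, gelatinase A, had 35.0, 54.6 and 83.4 FPKM in MI, against 17.3, 15.2 and 18.2 FPKM in sham (1.66 ± 0.32, adjusted p = 0.0289), and Adamts4 (2.17), Adamts9 (1.19) and Adamts12 (1.49) rose with it. Adamts7, a protease that cleaves the cartilage oligomeric matrix protein, moved the other way: it had 2.95, 2.69 and 2.97 FPKM in MI, against 7.27, 6.53 and 6.56 FPKM in sham (-1.11 ± 0.12, adjusted p = 0.00234).

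Growth factor signals rose in a few named members. Over all tested genes 1.37% rose. In the TGF-beta and activin list 5 of 30 rose: the ligand Tgfb3 (1.20), the activin subunit Inhbb (1.29), the receptor Tgfbr1 (0.94), the SMAD repressor Skil (0.83) and the secreted modulator Fstl1 (1.56). Of 17 Wnt modulators 4 rose. Sfrp2, a secreted Wnt binder, had 13.7, 40.5 and 72.3 FPKM in MI, against 3.73, 4.90 and 2.88 FPKM in sham (3.03 ± 0.56, adjusted p = 0.0259). Sfrp1 (1.49), the intracellular Wnt inhibitor Nkd2 (1.12) and the ligand Wnt9a (0.68) were the others. Igf1, a growth factor for muscle, was the member that rose among 11 insulin-like growth factor genes, with 6.06, 4.74 and 7.65 FPKM in MI, against 2.58, 3.45 and 3.37 FPKM in sham (0.86 ± 0.19, adjusted p = 0.0479). Egfr, the receptor of epidermal growth factor, was outside the lists and had 4.96, 4.50 and 4.93 FPKM in MI, against 1.03, 1.93 and 1.51 FPKM in sham (1.43 ± 0.19, adjusted p = 0.00832).

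The MI libraries were not alike in these genes. Of the 41 risen matrix genes 34 were lowest in MI 1 among the MI libraries and 32 were highest in MI 3. Among the other 171 risen genes 79 were lowest in MI 1 and 88 highest in MI 3. Mitochondrially encoded genes took 6.53%, 7.42% and 9.60% of recovered reads in MI 1, 2 and 3 and 9.57% to 9.98% in sham, and the atrial marker sum was highest in MI 1. The part of either in the order of the MI libraries was not tested.

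Some heart muscle genes changed, and 1.96% of all tested genes passed in either direction. Of 24 genes of the Z-disc, the anchor of the sarcomere's thin filaments and a site of mechanical sensing, 2 rose and 1 fell. Tcap, telethonin, which caps titin at the Z-disc (ENSMUSG00000007877, chromosome 11, 98383811 to 98384953), had 618, 490 and 430 FPKM in MI, against 2650, 2230 and 1640 FPKM in sham (-2.07 ± 0.36, adjusted p = 0.0205). Abra, a muscle protein that binds actin (ENSMUSG00000042895, chromosome 15, 41864076 to 41869720), had 108, 95.3 and 75.0 FPKM in MI, against 24.0, 20.8 and 15 FPKM in sham (2.20 ± 0.23, adjusted p = 0.00234). Both separated the groups with room to spare, in opposite directions. Pdlim7, a Z-disc adaptor, rose by 0.64. Of 17 sarcomere genes, 1 fell: Rbm20, the splicing factor of titin, with 42.6, 42.7 and 38.3 FPKM in MI, against 63.8, 61.3 and 61.0 FPKM in sham (-0.59 ± 0.13, adjusted p = 0.0458). None of 24 calcium cycling genes passed, with 3 higher and 2 lower at an unadjusted p under 0.05 (median -0.04). Such a p was found for 2562 of all 15503 tested genes, in either direction.

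In the list of cardiac stress and fetal genes 2 of 19 rose (median 0.39), against 1.37% of all tested genes (median 0.06). Rcan1, an inhibitor of the phosphatase calcineurin and itself induced by it, had 99.3, 103 and 74.3 FPKM in MI, against 27.5, 25.0 and 32.4 FPKM in sham (1.68 ± 0.24, adjusted p = 0.0114). Fhl1, a stretch-linked sarcomere protein, rose by 0.77. The classical markers did not pass. Nppb, brain natriuretic peptide, had 102, 259 and 278 FPKM in MI, against 57.3, 70.8 and 75.0 FPKM in sham (1.52 ± 0.39, adjusted p = 0.0748). Nppa, atrial natriuretic peptide, had 2870, 2200 and 2530 FPKM in MI, against 2040, 1670 and 1140 FPKM in sham (0.68 ± 0.54, adjusted p = 0.57). In both genes every MI library lay above every sham library, as did one group against the other in 31.4% of tested genes. The spread in the test was shared by all groups, and Nppa had 243, 1550 and 414 FPKM in CIH. The fit of the 6 libraries gave adjusted p = 0.0818 for Nppb and 0.115 for Nppa. The myosin heavy chain of adult mouse heart, Myh6, had 5160, 3920 and 3480 FPKM in MI, against 6600, 5970 and 4640 FPKM in sham (-0.46, adjusted p = 0.639). Its fetal counterpart Myh7 had 151, 225 and 266 FPKM in MI, against 88.6, 197 and 62.5 FPKM in sham (1.01 ± 0.85, adjusted p = 0.603), and skeletal actin Acta1 had 234, 614 and 406 FPKM in MI, against 114, 135 and 312 FPKM in sham (1.20, adjusted p = 0.368). The groups overlapped in all 3 of these genes. Myl7, an atrial myosin light chain, had 1070, 218 and 119 FPKM in MI, against 626, 543 and 470 FPKM in sham, so the atrial RNA of the libraries differed beside these values, and its part was not tested.

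Ion channel and receptor genes of heart muscle changed in single members, where 1.96% of all tested genes passed. Scn4b, a beta subunit of voltage-gated sodium channels (ENSMUSG00000046480, chromosome 9, 45138395 to 45154152), had 0.997, 1.57 and 1.29 FPKM in MI, against 8.25, 10.1 and 8.30 FPKM in sham (-2.40 ± 0.26, adjusted p = 0.00234). Scn4a, the pore subunit best known from skeletal muscle, had 2.18, 1.92 and 2.52 FPKM in MI, against 5.21, 5.30 and 4.59 FPKM in sham (-1.04 ± 0.23, adjusted p = 0.0446). These were the members that fell among 19 sodium channel, pacemaker and gap junction genes. Of 27 potassium channel subunits Kcnh2, the pore of the rapid delayed rectifier current, fell by 0.87, and Kcnn2, a small-conductance calcium-activated channel, fell by 0.90. Kcne1, the accessory subunit of the slow delayed rectifier, rose: it had 5.18, 5.35 and 5.31 FPKM in MI, against 1.55, 0.810 and 1.54 FPKM in sham (1.71 ± 0.23, adjusted p = 0.00781).

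In the adrenergic and renin-angiotensin list of 21 genes, 3 rose and 2 fell, against 1.96% of all tested genes that passed either way. Adrb1, the beta-1 adrenergic receptor that raises heart rate and force, had 6.43, 5.86 and 3.81 FPKM in MI, against 13.9, 13.8 and 10.9 FPKM in sham (-1.21 ± 0.23, adjusted p = 0.0263). Grk5, a kinase that desensitizes such receptors, rose by 0.77. Agt, angiotensinogen, had 16.8, 8.05 and 9.49 FPKM in MI, against 2.99, 2.32 and 3.07 FPKM in sham (1.8 ± 0.28, adjusted p = 0.0141), with MI 1 well above the other infarcted hearts. Ace, which converts angiotensin I to its active form, rose by 0.92, and the receptor Agtr1a fell by 0.90. The hormone precursor and its converting enzyme were thus higher and the receptor lower in the same hearts.

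**Figure D3:**
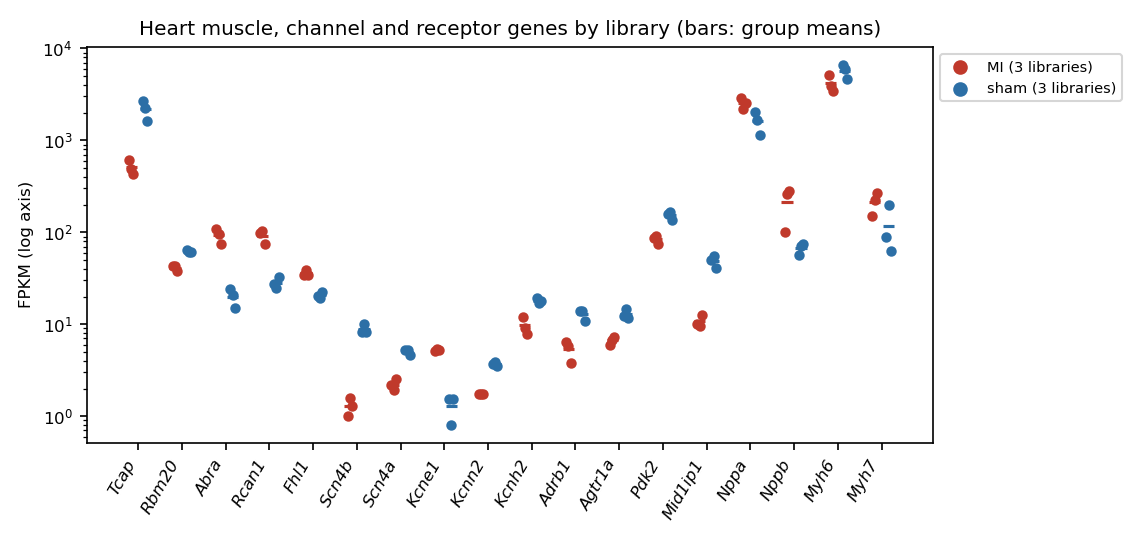
FPKM of 18 heart muscle, channel, receptor and metabolic genes in each library on a log axis, with MI in red to the left of sham in blue and a bar at each group mean. Tcap (430 to 618 FPKM in MI, 1640 to 2650 FPKM in sham) and Scn4b (0.997 to 1.57 FPKM in MI, 8.25 to 10.1 FPKM in sham) lie far apart between groups, while the Myh6 and Myh7 points overlap.

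Clock genes moved in opposite directions in the lists of the 2 arms of the loop. The repressor Nfil3 is counted with the activators for the phase of its RNA, and the D-box activator Dbp with the outputs. Part of the contrast thus lies in how the lists were drawn. Of 6 tested activator genes 3 rose and 0 fell (median 1.22), and of 19 repressor and output genes 0 rose and 7 fell (median -1.21). Among all tested genes 1.37% rose and 0.593% fell, with a median of 0.06. The labels give no hour of collection, so time of day and infarction cannot be told apart for any gene, including these clock genes. The start regions of 4 of them, from RefSeq on build GRCm38.p6, are given here because they hold a match to an element through which the clock arms are known to act on each other. Each window holds 300 bases, 250 before the annotated start and 50 after it, on the gene's strand from 5′ to 3′. Capitals mark the letters TAGGTCA (a REV-ERB and ROR element, on either strand) in Arntl and Nfil3, TTATGTAA (a D-box, bound by DBP, TEF, HLF and NFIL3) in Per3, and CACGTG (an E-box, bound by BMAL1 with CLOCK) in Tef.
Arntl, chr7:113207261-113207560, plus strand: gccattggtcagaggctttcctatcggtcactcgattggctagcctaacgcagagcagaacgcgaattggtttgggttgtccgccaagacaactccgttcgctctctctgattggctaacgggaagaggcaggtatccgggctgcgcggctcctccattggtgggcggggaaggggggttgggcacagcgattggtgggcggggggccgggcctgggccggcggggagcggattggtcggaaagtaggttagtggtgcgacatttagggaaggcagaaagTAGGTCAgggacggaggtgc
Nfil3, chr13:52980990-52981289, minus strand: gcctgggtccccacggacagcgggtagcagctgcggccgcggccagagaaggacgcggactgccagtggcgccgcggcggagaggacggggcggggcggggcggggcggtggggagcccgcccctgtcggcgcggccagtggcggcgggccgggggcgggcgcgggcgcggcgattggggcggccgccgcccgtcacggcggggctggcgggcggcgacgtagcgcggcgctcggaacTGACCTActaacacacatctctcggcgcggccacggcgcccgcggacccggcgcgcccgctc
Per3, chr4:151044616-151044915, minus strand: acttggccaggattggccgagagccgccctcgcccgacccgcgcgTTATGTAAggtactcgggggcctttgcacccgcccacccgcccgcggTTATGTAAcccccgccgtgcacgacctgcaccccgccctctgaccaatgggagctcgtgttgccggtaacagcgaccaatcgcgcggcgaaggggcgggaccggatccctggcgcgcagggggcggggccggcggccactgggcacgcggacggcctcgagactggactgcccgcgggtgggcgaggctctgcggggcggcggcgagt
Tef, chr15:81811164-81811463, plus strand: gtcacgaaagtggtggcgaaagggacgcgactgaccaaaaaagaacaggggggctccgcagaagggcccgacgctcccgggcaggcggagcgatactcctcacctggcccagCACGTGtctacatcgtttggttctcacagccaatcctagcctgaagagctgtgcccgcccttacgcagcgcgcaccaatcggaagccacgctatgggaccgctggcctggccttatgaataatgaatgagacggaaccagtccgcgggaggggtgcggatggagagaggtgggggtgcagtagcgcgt
Both strands were searched, and no 2 of these matches overlap. The letters TAGGTCA occurred in 2.61% of 32851 RefSeq windows of this length, TTATGTAA or TTACGTAA in 1.06% and CACGTG in 7.15%, so a match is a description of the window and not a proven site. Of 10 clock genes past the threshold, all with a window, these 4 held a match to any of the 3 elements, and so did 5 of 9 that did not pass: Per1, Cry1, Bhlhe41 and Ciart for CACGTG, and Timeless for a D-box. The other annotated start of Arntl had no match to TAGGTCA, and the other start of Tef had 1 match to CACGTG.

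Arntl, which encodes BMAL1 (ENSMUSG00000055116, chromosome 7, 113207465 to 113314126), had 8.95, 10.3 and 8.37 FPKM in MI, against 0.644, 0.349 and 0.640 FPKM in sham (3.22 ± 0.38, adjusted p = 0.0047). Its partner Clock had 8.30, 7.90 and 8.37 FPKM in MI, against 4.16, 3.88 and 4.92 FPKM in sham (0.86 ± 0.17, adjusted p = 0.0289). Nfil3, a repressor at D-boxes that is counted here with the activator arm because its RNA runs in phase with Arntl, had 23.7, 23.4 and 24.4 FPKM in MI, against 4.56, 4.18 and 3.42 FPKM in sham (2.43 ± 0.34, adjusted p = 0.0102). The 3 infarcted hearts were close to each other in all 3 genes. Each of these hearts lay above every sham heart, as in all 212 risen genes. Npas2, a stand-in for Clock, had 3.50, 4.05 and 2.48 FPKM in MI, against 0.587, 0.821 and 0.901 FPKM in sham and did not pass (1.58 ± 0.40, adjusted p = 0.072). In the fit of the 6 compared libraries alone it passed (adjusted p = 0.0106), with 4 activators risen and 11 repressors and outputs fallen. That fit had 4.45% of all tested genes risen and 2.27% fallen.

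Dbp, a D-box activator and output of the clock, had 4.32, 4.55 and 6.37 FPKM in MI, against 60.5, 62.5 and 90.7 FPKM in sham (-3.68 ± 0.60, adjusted p = 0.0183). Its relatives Tef (-1.85) and Hlf (-1.76) fell too. Per3, a period gene, had 1.64, 1.84 and 1.68 FPKM in MI, against 9.93, 10.7 and 10.7 FPKM in sham (-2.30 ± 0.45, adjusted p = 0.0316). Each of these genes left a wide gap between the groups. The REV-ERB genes Nr1d1 (-1.44) and Nr1d2 (-1.84), whose proteins repress Arntl, and Usp2, a clock-controlled deubiquitinase (-1.21), fell as well. Nr1d1 lies against Thra on the other strand, and the counting is not stated to use strand. Per2 had 6.17, 6.92 and 5.70 FPKM in MI, against 19.4, 25.1 and 11.8 FPKM in sham (-1.45, adjusted p = 0.264, and 0.029 in the fit of the 6 libraries), and Per1 had 19.4, 18.6 and 25.1 FPKM in MI, against 21.2, 25.6 and 16.6 FPKM in sham, without separation. In the context groups, both genes were even among the MI+CIH hearts and varied widely among the CIH hearts: Arntl had 5.21, 5.17 and 5.54 FPKM in MI+CIH, against 2.42, 6.26 and 1.14 FPKM in CIH, and Dbp 12.5, 17.8 and 12.7 FPKM in MI+CIH, against 27.5, 7.77 and 73.3 FPKM in CIH. The adjusted p of the interaction of infarction with hypoxia was 0.0705 for Arntl and 0.101 for Dbp.

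**Figure D4:**
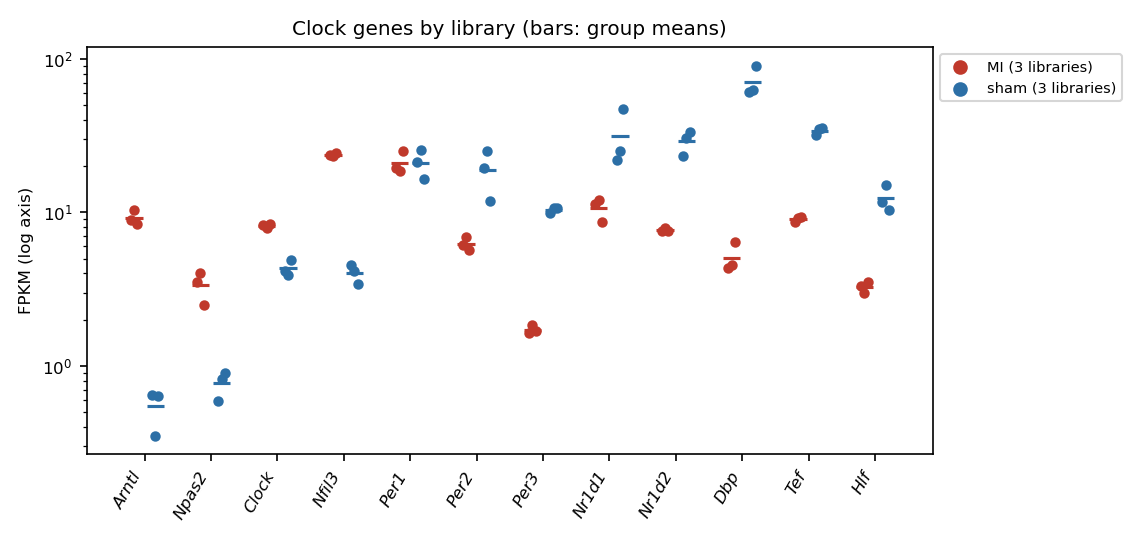
FPKM of 12 clock genes in each library on a log axis, with MI in red to the left of sham in blue and a bar at each group mean. Arntl, Npas2, Clock and Nfil3 lie higher in MI and Per3, Nr1d1, Nr1d2, Dbp, Tef and Hlf lower, while Per1 overlaps.

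The smallest p of the comparison belonged to Cdkn1a, which encodes the cell cycle inhibitor p21 (ENSMUSG00000023067, chromosome 17, 29090976 to 29100727). It had 67.8, 71.2 and 62.9 FPKM in MI, against 6.52, 6.06 and 6.91 FPKM in sham (3.28 ± 0.26, adjusted p = 0.000712). The replicates of each group were nearly equal. In the context groups it had 35.1, 37.5 and 56.0 FPKM in MI+CIH, against 18.5, 32.5 and 14.1 FPKM in CIH (limma, log2 change 1.02, adjusted p = 0.0146). CIH 2 was the highest CIH library in Cdkn1a as in Arntl, and the part of collection hour was not tested. Cdkn1a was the member that rose among 25 tested genes of p53 and cell cycle arrest (median 0.34). Among all 15503 tested genes 1.37% rose (median 0.06) and 2562 had an unadjusted p under 0.05 in either direction. None of 26 cell cycle and DNA replication genes passed, with 7 higher at an unadjusted p under 0.05. Cdkn1a was also among the 5 of 25 glucocorticoid-induced genes that rose (median 0.57), with Fkbp5, a co-chaperone of the glucocorticoid receptor (1.65), the receptor feedback gene Errfi1 (1.38), the kinase Map3k6 (1.37) and Angptl4 (2.82). Fkbp5 had 18.9, 18.2 and 17.4 FPKM in MI, against 4.31, 8.10 and 4.64 FPKM in sham (1.65 ± 0.33, adjusted p = 0.0338), the infarcted hearts close together and sham 2 the highest of its group.

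Genes that fold secreted proteins in the endoplasmic reticulum rose in 5 of 25 cases, and 15 were higher at an unadjusted p under 0.05 (median 0.55). Among all 15503 tested genes 1.37% rose and 0.593% fell (median 0.06), and 2562 had an unadjusted p under 0.05 in either direction. Hspa5, the chaperone BiP, had 196, 172 and 183 FPKM in MI, against 104, 96.1 and 109 FPKM in sham (0.83 ± 0.19, adjusted p = 0.0492). Manf, a secreted stress-induced factor (1.24), the disulfide isomerases Pdia4 (0.87) and Pdia6 (0.83) and the co-chaperone Dnajc3 (0.72) rose with it. Ddit3, the transcription factor CHOP of the same stress response, went down in these hearts: it had 7.39, 6.96 and 8.25 FPKM in MI, against 13.6, 13.8 and 13.1 FPKM in sham (-0.81 ± 0.13, adjusted p = 0.014). It was the member that fell among 26 ATF4 and amino acid response genes, of which 2 rose. Slc38a2, a transporter of neutral amino acids, had 59.0, 72.2 and 70.1 FPKM in MI, against 21.9, 30.1 and 23.0 FPKM in sham (1.42 ± 0.16, adjusted p = 0.00234), and Mthfd2, a mitochondrial folate enzyme, rose by 1.04. None of 21 heat shock genes passed, with 5 higher at an unadjusted p under 0.05.

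Of the genes of energy metabolism few passed. Among all 15503 tested genes 1.37% rose, 0.593% fell and 2562 had an unadjusted p under 0.05 in either direction. None of 41 nuclear genes of oxidative phosphorylation passed (median 0.02, with 2 higher at an unadjusted p under 0.05), and none of 12 mitochondrially encoded genes did (median -0.37, with 1 lower). Of 28 fatty acid oxidation genes Ppargc1a, the coactivator PGC-1 alpha that drives mitochondrial genes, rose by 0.81 and none fell, with 4 lower at an unadjusted p under 0.05 and 4 above 0 in log2 change (median -0.19). In the fit of the 6 libraries 4 of them fell, where 2.27% of all tested genes fell. Mid1ip1, which promotes fatty acid synthesis through acetyl-CoA carboxylase, had 10, 9.63 and 12.6 FPKM in MI, against 50.2, 55.8 and 40.4 FPKM in sham (-2.13 ± 0.22, adjusted p = 0.00234). Angptl4, a secreted inhibitor of lipoprotein lipase, had 26.8, 17.5 and 12.9 FPKM in MI, against 2.28, 4.94 and 0.732 FPKM in sham (2.82 ± 0.52, adjusted p = 0.026). These were the fallen and the risen member of the lipid list of 27 genes. In the glucose list of 31 genes Pdk2, a kinase that inhibits pyruvate dehydrogenase, fell by 0.86, and Mlxipl, the glucose-sensing factor ChREBP, by 1.0. Pdk4, a related kinase, had 283, 268 and 235 FPKM in MI, against 84.7, 111 and 20.2 FPKM in sham, without passing (2.17 ± 0.51, adjusted p = 0.0585). Of 29 targets of the hypoxia-inducible factors 3 rose, Angptl4, P4ha1 and the hormone Stc1 (1.05). Nox4, an NADPH oxidase that makes hydrogen peroxide, rose by 1.49.

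Red cell genes were lower in MI. Of 14 tested, 6 fell, 0 rose and 1 had a log2 change above 0 (median -1.86). Among all tested genes 0.593% fell and 1.37% rose, with a median of 0.06. Alas2, the erythroid enzyme at the start of haem synthesis, had 10.8, 10.3 and 7.44 FPKM in MI, against 70.8, 85.6 and 27.0 FPKM in sham (-2.48 ± 0.53, adjusted p = 0.0442). Slc25a37, mitoferrin, had 5.01, 5.22 and 4.32 FPKM in MI, against 18.3, 27.5 and 11.7 FPKM in sham (-1.80 ± 0.24, adjusted p = 0.00781). In both, sham 3 lay well below sham 1 and 2 and still above every infarcted heart. The band 3 anion exchanger Slc4a1 (-2.25) and Bpgm (-1.96), which makes the regulator of haemoglobin's oxygen affinity, fell as well. The haemoglobin gene Hba-a1 had 39.8, 40.3 and 41.6 FPKM in MI, against 385, 373 and 129 FPKM in sham (-2.69, adjusted p = 0.0532). Hbb-bs had 84.4, 79.6 and 64.6 FPKM in MI, against 139, 142 and 81.5 FPKM in sham and overlapped. Haemoglobin genes have near-identical copies among which reads can be split, so these values are uncertain. How much blood each frozen heart held is not given, and its part in these genes was not tested.

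Immune calls depended on which libraries entered the fit: of 28 macrophage genes 1 rose, and of 17 complement genes 0, against 9 and 5 in the fit of the 6 compared libraries alone, where 4.45% of all genes rose. In the main fit 1.37% of all genes rose, and 2562 of 15503 had an unadjusted p under 0.05 in either direction. The risen macrophage gene, Adgre1, which encodes the surface marker F4/80, had 7.40, 6.04 and 9.29 FPKM in MI, against 3.07, 2.92 and 4.89 FPKM in sham (0.98 ± 0.22, adjusted p = 0.048), and 11 of the list were higher at an unadjusted p under 0.05 (median 0.57). The summed level of 5 macrophage markers was 137, 96.6 and 129 FPKM in MI 1, 2 and 3, against 65.7, 59.8 and 91.4 FPKM in sham 1, 2 and 3. Tlr4, the receptor of bacterial lipopolysaccharide, was outside that list and had 7.76, 9.57 and 8.86 FPKM in MI, against 2.63, 2.91 and 3.29 FPKM in sham (1.42 ± 0.17, adjusted p = 0.00451). The chemokine Ccl11, which attracts eosinophils, fell by 1.56, Csf1, the macrophage growth factor, by 0.73, and the interferon-induced GTPase Gbp5 by 0.88. None of 7 neutrophil, 15 lymphocyte or 17 complement genes passed, and at an unadjusted p under 0.05 the first list had 0, the second 4 higher and the third 7 higher. The antibody segment Igkv15-103 had 19.7, 7.38 and 18.8 FPKM in MI, against 0, 1.04 and 0.0879 FPKM in sham (4.24 ± 0.44, adjusted p = 0.00234). Such segments share reads with near copies and are uncertain. The kappa constant region Igkc had 501, 134 and 382 FPKM in MI, against 47.4, 311 and 160 FPKM in sham and overlapped.

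Other tissue and response lists held few or no members past the threshold. For scale, 2562 of all 15503 tested genes had an unadjusted p under 0.05, in either direction. limma called 0 of 30 endothelial genes (5 higher and 2 lower at an unadjusted p under 0.05), 0 of 19 smooth muscle and pericyte genes (0 higher, 1 lower), 0 of 15 epicardial genes (0 and 0), 0 of 19 fat cell genes (6 higher, 0 lower) and 0 of 23 muscle proteolysis and autophagy genes (1 higher, 2 lower). Among 22 immediate early genes Myc, a transcription factor of growth, had 8.70, 7.14 and 7.13 FPKM in MI, against 3.04, 3.36 and 2.47 FPKM in sham (1.24 ± 0.23, adjusted p = 0.0251). Every infarcted heart lay above every sham heart, as in all 212 risen genes.

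Several genes outside the lists changed too. Gem, a small GTPase that inhibits calcium channels, had 5.73, 5.14 and 7.34 FPKM in MI, against 2.06, 2.27 and 2.13 FPKM in sham (1.29 ± 0.18, adjusted p = 0.00889). Sh3pxd2b, a scaffold of invasive cell protrusions (1.37), the septin Sept5 (1.22) and the fibronectin-domain protein Fndc1 (0.98) also rose. On the other side, Irx4, a transcription factor of ventricular muscle, had 4.50, 5.41 and 7.26 FPKM in MI, against 13.6, 11.8 and 11.8 FPKM in sham (-1.07 ± 0.20, adjusted p = 0.0259). Crhr2, the urocortin receptor of the heart, had 2.16, 2.12 and 1.81 FPKM in MI, against 4.44, 5.56 and 3.62 FPKM in sham (-0.98, adjusted p = 0.0224). The groups did not overlap in either gene, as in all 304 called genes and in 31.4% of tested genes. The adhesion molecule Cdh4 (-1.32), the kinase Cdk18 (-1.11), the semaphorin receptor Plxnb1 (-0.99) and the RNA-binding protein Cpeb3 (-0.84) fell as well. Tent5c, a poly(A) polymerase, had 4.06, 3.15 and 2.11 FPKM in MI, against 24.0, 31.7 and 9.75 FPKM in sham (-2.51 ± 0.44, adjusted p = 0.0231), with sham 3 lowest of its group as in the red cell genes.

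The study's title is about a cardiokine, a protein secreted by the heart. C1qtnf9, which encodes CTRP9, a secreted protein of that kind, had 41.7, 36.6 and 33.8 FPKM in MI, against 52.6, 44.4 and 45.9 FPKM in sham (-0.35 ± 0.22, adjusted p = 0.456). All 3 infarcted hearts lay below all 3 sham hearts, as did one group against the other in 31.4% of tested genes, and the gene did not pass.

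The effect of infarction could be read a second time in libraries that the comparison did not use, as MI+CIH against CIH, with the estimate of the spread shared by both. RNA of another tissue moved with that contrast: the summed level of the airway and lung list was 367, 3780 and 1550 FPKM in MI+CIH, against 1.42, 20.3 and 3.56 FPKM in CIH, with 12 of its 13 tested genes risen, and 12 of 15 epicardial genes rose. Its part in the calls was not tested. In all, 4368 genes (28.2%) passed, 3088 rising (19.9%) and 1280 falling (8.26%). Of the 212 genes that rose in MI against sham 163 rose there too (76.9% of the 212 and 5.28% of the 3088), and of the 92 that fell 42 fell (45.7% and 3.28% of the 1280). When each contrast was fitted on its own 6 libraries, the shares were 237 of 690 risen genes, or 34.3% (21.0% of those that rose in MI+CIH), where 7.29% of all tested genes rose. For fallen genes they were 50 of 352, or 14.2% (14.5% of those that fell in MI+CIH), where 2.23% of all tested genes fell. Matrix genes carried over in most cases: 37 of the 41 risen ones rose again, among them Col3a1 with a log2 change of 2.72, Eln with 2.78, Ltbp2 with 3.80, Cilp with 3.37 and Thbs3 with 1.41. So did Scn4b (-1.95), Adrb1 (-1.32), Agtr1a (-0.90), Rbm20 (-0.59), Agt (1.90) and, with a smaller estimated change than in MI against sham, Cdkn1a (1.02). The difference between the contrasts did not pass for Cdkn1a (limma, adjusted p of the interaction = 0.0604).

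Other genes were not called under hypoxia. Tcap had a log2 change of -0.65 in MI+CIH against CIH (adjusted p = 0.197), Kcne1 -0.14 (0.686), Slc38a2 0.10 (0.659), Slc25a37 -0.11 (0.76), Arntl 0.86 (0.113) and Dbp -0.81 (0.33). The adjusted p of the difference between the contrasts lay from 0.0641 to 0.148 for these 6 genes, so none of them was shown to differ. Of the 41 nuclear genes of oxidative phosphorylation, 36 fell in MI+CIH against CIH (median -1.07), and the difference between the contrasts was not tested for the list. The number of genes called in MI+CIH against CIH dropped to 2826 without MI+CIH 3. Of the 304 genes 5 passed in opposite directions in the 2 contrasts, 2 of them risen and 3 fallen in MI against sham. They were Hspa5 (-0.64 in MI+CIH against CIH) and the kinase gene Snrk (-0.34) among the risen, and Ddit3 (0.64), Csf1 (0.73) and Nabp2 (0.57) among the fallen. The interaction passed for Ddit3, Csf1 and Nabp2, with adjusted p = 0.0396, 0.0486 and 0.0486, but 0 genes passed it when any of sham 1, sham 2, MI 1, MI 2, MI 3, CIH 2, CIH 3 or MI+CIH 3 was left out (limma, 2519 to 3089 genes at an unadjusted p under 0.05). Snrk and Nabp2 were named after their values were seen.

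**Figure D5:**
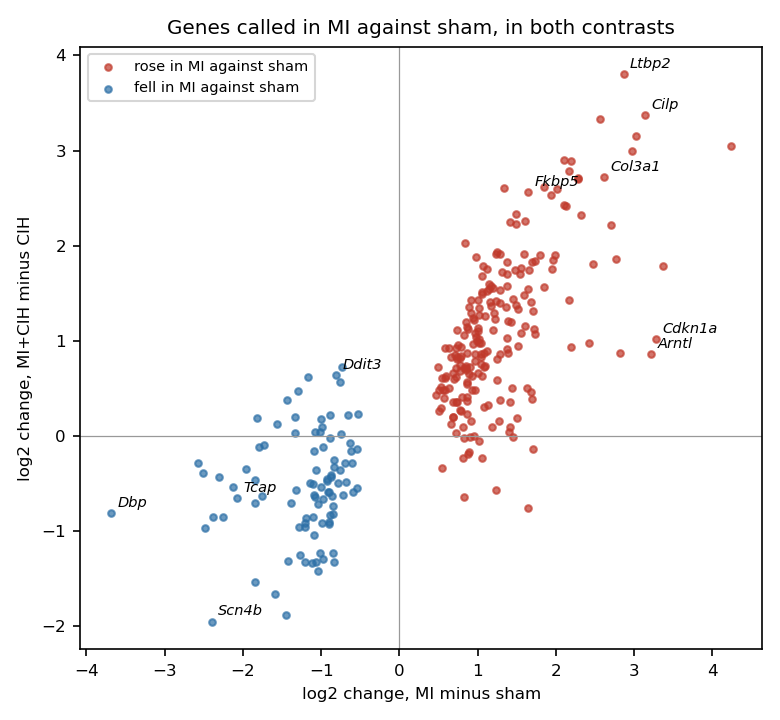
Log2 change of the 304 genes called in MI against sham (horizontal axis) and in MI+CIH against CIH (vertical axis), red for genes that rose and blue for genes that fell in MI against sham. Each point is a gene. Col3a1, Ltbp2, Cilp and Scn4b lie far from 0 on both axes. Arntl, Tcap and Dbp lie mainly along the horizontal one, as does Cdkn1a, which rose in both contrasts. Ddit3 has opposite signs.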

How the data were processed

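Total RNA of flash-frozen hearts was extracted with Trizol, per the labels' protocols. A kit for small RNA libraries is named there, whereas the series design is about mRNA. The authors deposited 1 table of FPKM values for 26781 genes in 12 libraries. The genome build was mm10 and the tools were DESeq 1.8.3, featureCounts 1.5.0-p3 and HISAT, per the submitters' processing notes, which do not say what made the FPKM. Whether counting used strand, and how reads of near-identical genes were assigned, is not given in the sources used here. Depth was recovered from the steps between low FPKM values: 22225 of 25429 genes with a known length (87.4%) came out within 0.1 of whole reads in all 12 libraries, which held 26060000 to 33420000 reads each. No pair of libraries was identical.

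FPKM values were tested as log2(FPKM + 0.5), with no rescaling, in genes with at least 0.5 FPKM in at least 3 of the 12 libraries. A fold change on this scale understates the change of low genes. limma 3.58.1 (R 4.3.3, statmod 1.5.0) fitted a mean per group over all 12 libraries, with a mean-variance trend and robust empirical Bayes. P-values were two-sided and adjusted by Benjamini-Hochberg over the 15503 genes of each comparison, at 0.05. A value after ± is a standard error unless SD is named. An exact permutation test of 3 against 3 libraries could not go below p = 0.1, so no gene was tested that way. The procedure was tested on simulated data.

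The comparison, the 51 gene lists (1098 genes) and the tests were chosen with earlier results of these data known. Lists were described by counts and medians and not tested. Genes were named by rule: by p, the first 15 risen and 15 fallen whose log2 change was at least 1 in size, with a mean of at least 1 FPKM, separated groups and a proper symbol; of each list up to 6 members past the threshold and 3 others by level; the 5 largest changes each way; up to 10 each way that passed in both contrasts; and Nppa, Nppb, Myh6, Myh7, Acta1 and C1qtnf9. Other members of lists that are named complete a count. Some genes that meet the rule are not reported here. Alternatives changed the filter, pseudocount, scaling, variance model, replicate block and libraries in the fit. Gene positions are from GENCODE M21 on GRCm38, and start regions from RefSeq.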

Additional observations from a re-analysis of the deposited data

Results flagged for a closer look

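For Ddit3 and Csf1, the effect of infarction differed between hearts with and without CIH by the test of the interaction, and both genes passed in opposite directions. Ddit3, which encodes CHOP, had 8.58, 10 and 7.94 FPKM in MI+CIH, against 4.69, 5.66 and 6.14 FPKM in CIH (log2 change 0.64 ± 0.13 SE), while it had 7.39, 6.96 and 8.25 FPKM in MI, against 13.6, 13.8 and 13.1 FPKM in sham (-0.81 ± 0.13). The interaction was 1.45 (limma, adjusted p = 0.0396). Levels in MI+CIH and MI lay close together, and those of CIH lay below those of sham.

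Csf1, a growth factor of macrophages, had 21.4, 17.8 and 21.4 FPKM in MI+CIH, against 13.5, 12.7 and 10.1 FPKM in CIH (0.73 ± 0.16), while it had 15.4, 13.8 and 11.8 FPKM in MI, against 19.7, 23.8 and 25.6 FPKM in sham (-0.73 ± 0.16). The interaction was 1.46 (limma, adjusted p = 0.0486). Over all genes 12 passed the interaction test, and 0 passed when any of sham 1, sham 2, MI 1, MI 2, MI 3, CIH 2, CIH 3 or MI+CIH 3 was left out.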

How the results depend on the processing

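Of 304 genes that passed in MI against sham, counts of 280 to 339 were found under other pseudocounts, a filter at a mean of 1 FPKM, median-of-ratios scaling and ordinary empirical Bayes. The count was 143 with no filter, 1042 in a fit of the 6 libraries alone and 2 (both risen) when an absolute log2 change of 1 was the null. Leaving out 1 library of the 12 gave 22 (without MI 3) to 484 (without MI+CIH 3). Median-of-ratios scaling moved the share of risen genes among the calls to 60.8%, from 69.7% as deposited, and the median of all genes to 0.01. The replicate block left 177 genes (120 rose, 57 fell); same-numbered MI and sham libraries had deviations from their group means that correlated at r = 0.04, -0.01 and 0.11, against -0.09 to 0.05 for other pairs, and not every sample correlated best with its own number, so the numbers were not taken to pair them. As alternatives added after seeing the data, the 6 libraries with the replicate block gave 699, and leaving out sham 2 and MI+CIH 3 together gave 65. For MI+CIH against CIH the 4368 genes became 3954 with the replicate block, 1475 in its own 6 libraries, 2826 to 4590 without 1 library, and 2291 without sham 2 and MI+CIH 3. Scaling moved the risen share there to 58.0%, from 70.7%, and the median of all genes to 0.11, from 0.20. The 12 interaction genes (3294 at an unadjusted p under 0.05) became 1 with no filter, 2 with a pseudocount of 0.1, 145 with median-of-ratios scaling, 2 with ordinary empirical Bayes and 0 to 999 without 1 library (999 without MI+CIH 2). limma called 0 with the replicate block (3129 at an unadjusted p under 0.05) and 0 without sham 2 and MI+CIH 3 (2292). The cause of these shifts was not tested. None of the 131 named genes past the threshold reversed its sign under these settings.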

Other observations

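Further genes, picked after their values were seen, showed changes in the infarcted hearts that the gene lists did not cover. Dio2, the deiodinase that turns thyroxine into active thyroid hormone, had 4.23, 9.53 and 12.4 FPKM in MI, against 0.553, 0.597 and 1.37 FPKM in sham (limma, log2 change 2.71, adjusted p = 0.0128). Irs2, an adaptor of the insulin receptor, had 14.1, 15.3 and 26.4 FPKM in MI, against 3.47, 5.28 and 6.90 FPKM in sham (1.73, adjusted p = 0.0224), and its relative Irs1 rose by 1.02. Lrp1, a large endocytic receptor, was nearly constant within groups, at 93.8, 97.5 and 94.9 FPKM in MI, against 44.8, 43.6 and 47.8 FPKM in sham (1.06, adjusted p = 0.0454). Fgl2, a secreted fibrinogen-like protein, had 50.7, 39.3 and 43.7 FPKM in MI, against 16.5, 14.6 and 14.5 FPKM in sham (1.52, adjusted p = 0.0148). Itga11, a collagen-binding integrin chain (1.54), Adamtsl2, a microfibril-associated secreted protein (2.32), and Hbegf, a ligand of the EGF receptor (0.93), rose with them.

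Among fallen genes, Epb41, a skeleton protein of the red cell membrane, had 13.3, 10.9 and 9.72 FPKM in MI, against 33.4, 36.6 and 19.6 FPKM in sham (-1.33, adjusted p = 0.0224). Ube2l6 (-1.73) and Ube2o (-1.09), both ubiquitin-conjugating enzymes, also had sham 3 as the lowest sham library. Jph1, a junctophilin that ties muscle cell membrane to calcium stores, had 5.03, 5.21 and 5.52 FPKM in MI, against 9.99, 10.4 and 9.75 FPKM in sham (-0.87, adjusted p = 0.0224). Rbfox1, a splicing factor of muscle and brain, fell by 1.09, the chloride channel Clcn1 by 1.27 and the MAP kinase phosphatase Dusp7 by 1.14.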
